A study of Mus musculus with 8 samples.

Results

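The genes described here carry the insulin and glucagon signals of the hepatocyte and bind insulin-like growth factor (Igf) in the circulation: Insr, Irs1, Irs2, Gcgr, Sgk1, Igfbp1, Igfbp2, Igfbp3, Igfbp4 and Igfbp7. They were chosen by symbol, and all 10 were found among the 35275 Ensembl genes in the table of counts. All 10 were also among the 13168 genes that had enough reads to be tested. Liver RNA was sequenced from 4 mice lacking pyruvate carboxylase in hepatocytes and 4 controls, with 1 library per mouse. Pcx L-/- mice carried a floxed Pcx allele, made from a C57BL/6NTac Tm1a allele crossed to a Flpe deleter, and Albumin-Cre, which is active in hepatocytes and leaves the gene intact in the other cells of the liver. Controls were Pcx f/f littermates without Cre, which the sample labels call WT. All mice were males on a C57BL/6 background, 9 weeks old, kept on chow and fasted for 24 h before the liver was taken, so the controls were fasted too and no fed liver was compared.

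In the fed state insulin binds its receptor on the hepatocyte, the receptor phosphorylates insulin receptor substrates, and these recruit phosphoinositide 3-kinase, which activates Akt and, by a parallel route, the kinase Sgk1. Akt keeps the transcription factor FoxO1 out of the nucleus. In fasting insulin is low, FoxO1 enters the nucleus and raises genes such as Igfbp1 and Irs2, while glucagon acts through its receptor, cyclic AMP, protein kinase A and Creb on gluconeogenic genes. The Igf-binding proteins are secreted and hold Igf1 and Igf2 in plasma and tissue. Igfbp1 is the member of that family whose liver transcript responds most acutely to fasting and insulin.

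Deletion of Pcx in these libraries was seen in the counts of the gene itself. Its normalized count was 14371 to 22059 in the controls and 556 to 758 in Pcx L-/- liver (log2 fold change -4.80, adjusted p = 3.7e-07, edgeR). Normalized counts are reads divided by the effective library size from edgeR's TMM factors, and adjusted p values are those of edgeR's quasi-likelihood F test, corrected by the Benjamini-Hochberg method over all 13168 genes. A gene was called at an adjusted p under 0.05. Libraries held 12016242 to 20023108 reads on genes. Control replicate 4 was the smallest library and had the lowest TMM factor (0.833), and Pcx L-/- replicates 2 to 4 had the highest (1.14 to 1.16). Control replicate 4 and Pcx L-/- replicate 1 agreed least with the other mice of their genotype (median Spearman correlation 0.981 and 0.980, against 0.988 to 0.991 in the other mice). The difference of Pcx L-/- replicate 1 cannot be told apart from its mouse-number series. For the genes and some of the lists below, values without control replicate 4, Pcx L-/- replicate 1 or both are therefore given where they bear on the reading.

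The liver carried its hepatocyte transcripts in all 8 mice, and 9 hepatocyte markers were tested. Of these, 4 were called lower in Pcx L-/- liver and none higher, against 13.5% and 14.1% of all genes tested. Their median log2 fold change was -0.61. The count called lower was 7 without Pcx L-/- replicate 1, 3 without control replicate 4 and 7 without both. It was 1 without any one of Pcx L-/- replicates 2 to 4, 2 without control replicate 3 and 6 by DESeq2. With library size as the only scaling it was 3, and by each limma fit on FPKM it was 1. No marker was called higher in any of these. Their summed normalized count was 1780299 to 2317319 in control liver and 1029853 to 1551946 in Pcx L-/- liver, led by Alb. In bulk tissue, fewer cells of a type and less RNA per cell cannot be told apart. The pancreatic hormone genes Ins1, Ins2 and Gcg were at 0 reads in every library, so the hormones themselves were not read in this tissue.

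Among all genes tested, 27.6% were called, 14.1% higher and 13.5% lower in Pcx L-/- liver. Of the 10 genes, 1 was called higher (Sgk1), 1 lower (Insr) and 8 were not called. The values of the genotypes did not overlap for these 2 genes, and 27.6% of all genes tested had values that did not overlap. The median log2 fold change of the 10 genes was -0.38, against -0.01 over all genes tested. The median size of the change, regardless of direction, was 0.45, against 0.29 over all genes tested. The counts of called members are thus close to the share over all genes.

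**Figure D1:**
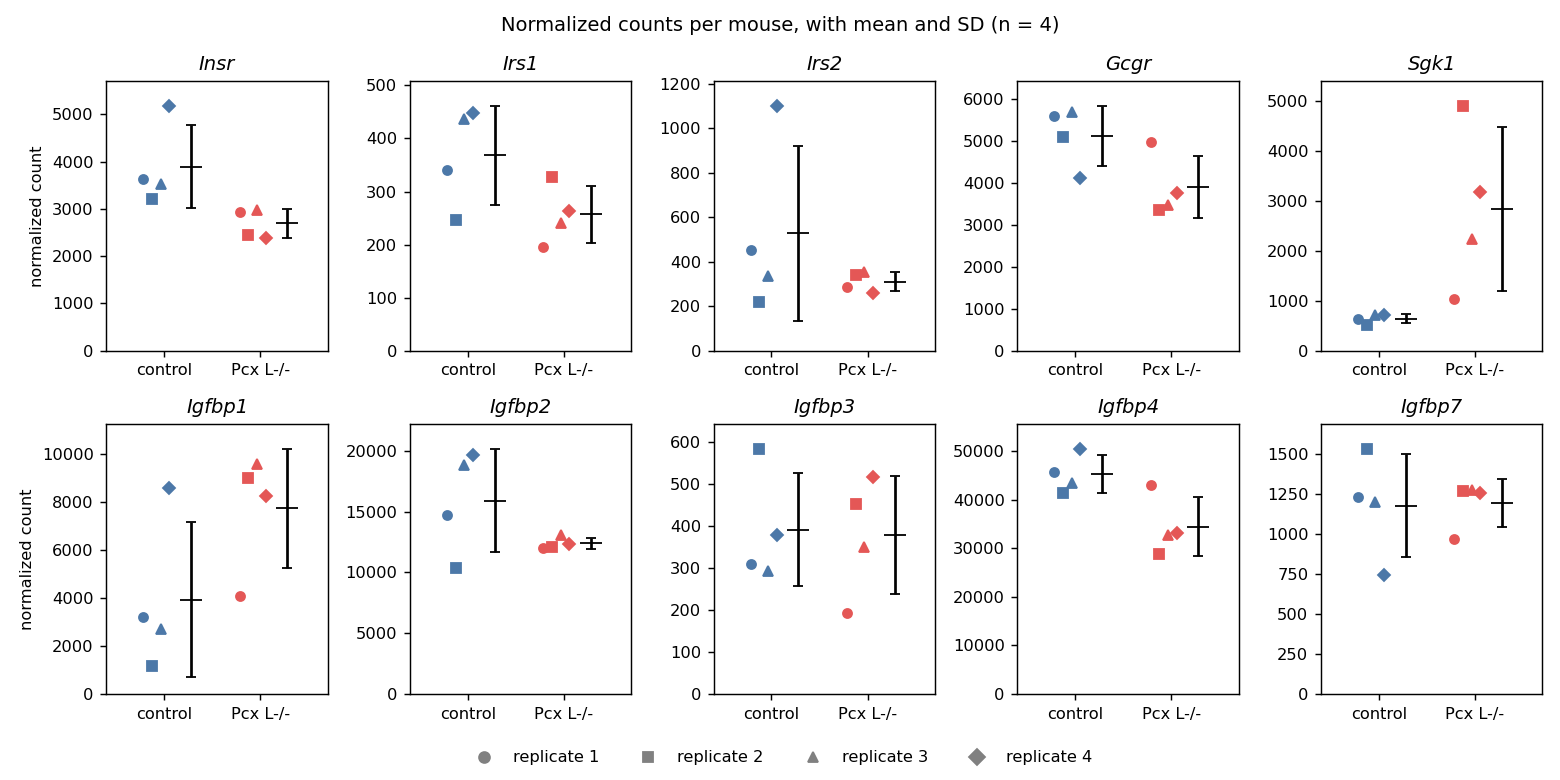
Normalized counts of the 10 genes in each mouse, with the y axis of each panel starting at 0. Coloured symbols mark the replicate number, the black bar is the mean and its whiskers the SD of 4 mice. Insr in Pcx L-/- liver lay below, and Sgk1 above, all 4 controls, while control replicate 4 stood highest of its group for Irs2 and Igfbp1.

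Promoter sequences are shown for Igfbp1, Irs1 and Irs2, because these are the only genes of the set whose promoter windows held any of the 4 motifs searched, and FoxO1, which insulin restrains, is known to act on Igfbp1 and Irs2. The sequences are the 250 bases before the RefSeq start in GRCm38.p6, written 5′ to 3′ on the strand of the gene. They come from chr11:7197537-7197786 (plus strand), chr1:82291440-82291689 (minus strand) and chr8:11008930-11009179 (minus strand). Capitals mark CAAAACA, the core of the insulin response element to which FoxO proteins bind, or its reverse complement TGTTTTG.
Igfbp1: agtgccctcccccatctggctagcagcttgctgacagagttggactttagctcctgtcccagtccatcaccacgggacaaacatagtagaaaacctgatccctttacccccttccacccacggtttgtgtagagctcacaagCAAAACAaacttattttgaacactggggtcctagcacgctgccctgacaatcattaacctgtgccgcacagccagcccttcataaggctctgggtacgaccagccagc
Irs1: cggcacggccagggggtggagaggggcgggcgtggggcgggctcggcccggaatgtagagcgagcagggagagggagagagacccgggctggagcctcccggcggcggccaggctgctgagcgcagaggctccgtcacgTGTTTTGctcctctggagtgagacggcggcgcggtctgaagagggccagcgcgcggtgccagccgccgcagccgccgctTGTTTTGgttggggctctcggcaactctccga
Irs2: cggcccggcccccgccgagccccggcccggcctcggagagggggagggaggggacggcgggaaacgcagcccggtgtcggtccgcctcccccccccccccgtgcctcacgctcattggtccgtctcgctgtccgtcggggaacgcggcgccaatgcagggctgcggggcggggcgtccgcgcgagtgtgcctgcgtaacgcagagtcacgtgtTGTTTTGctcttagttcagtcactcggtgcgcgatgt

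Igfbp1 held 1 match on its own strand, beginning 108 bases before the start. Irs1 held 2 on the opposite strand, beginning 111 and 32 bases before it, and Irs2 held 1 on the opposite strand at 37 bases. Windows of 300 bases (250 before and 50 after the start) were searched on both strands, and 6.28% of all 32851 windows of this length held CAAAACA. The other motifs were GTAAACA (forkhead core, in 3.65% of all windows), TGACGTCA (cyclic AMP response element, 1.79%) and TGATGNAA (C/EBP-ATF response element core, 3.97%). None of these 3 was found in the 15 windows of the 9 genes that had one. No match overlapped another, and a match describes the letters only. Insr had no window.

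Insr encodes the insulin receptor (ENSMUSG00000005534, chromosome 8, 3122061 to 3279617, minus strand). Its normalized counts in control replicates 1 to 4 were 3639, 3214, 3529 and 5188. In Pcx L-/- replicates 1 to 4 they were 2945, 2456, 2979 and 2394. All 4 Pcx L-/- mice lay below the lowest control, and control replicate 4 was well above the other controls. The means were 3892 ± 882 in control and 2694 ± 311 in Pcx L-/- liver (SD, n = 4), with a log2 fold change of -0.53 (SE 0.16, adjusted p = 0.031, edgeR). Without control replicate 4 the log2 fold change was -0.36 (adjusted p = 0.044, edgeR). Insr was called in 9 of 17 alternative analyses and in 4 of the 8 that each left out 1 mouse, with adjusted p values up to 0.102. It was not called without control replicate 1 or without any one of Pcx L-/- replicates 2 to 4. With library size as the only scaling its log2 fold change was -0.24 (adjusted p = 0.194, edgeR). On that scaling the median of all genes moved to 0.28, and relative to that median Insr was at -0.52.

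Irs1 and Irs2 are the insulin receptor substrates that link the receptor to phosphoinositide 3-kinase. Irs1 (ENSMUSG00000055980, chromosome 1, 82233101 to 82291416, minus strand) gave 341, 247, 436 and 448 normalized counts in control replicates 1 to 4. It gave 196, 327, 241 and 263 in Pcx L-/- replicates 1 to 4. Pcx L-/- replicates 1 and 3 lay below every control, and the other two lay within the control range. The log2 fold change was -0.51 (SE 0.20) and Irs1 was not called (adjusted p = 0.081, edgeR), with a 95% interval of the difference from -0.96 to -0.07. It was called with the series of mouse numbers as a covariate (-0.64, adjusted p = 0.00785, edgeR) and without control replicate 2 (-0.67, adjusted p = 0.022, edgeR). No other alternative run called it. Irs1 was at -0.41 without control replicate 4, -0.40 without Pcx L-/- replicate 1 and -0.29 without both.

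Irs2 (ENSMUSG00000038894, chromosome 8, 10984681 to 11008458, minus strand) varied widely among the controls. Their normalized counts were 453, 219, 336 and 1103 in replicates 1 to 4, against 288, 340, 352 and 260.0 in Pcx L-/- liver. Control replicate 4 was the highest of the 8 mice and control replicate 2 the lowest, and all 4 Pcx L-/- mice lay between them. The coefficient of variation was 74.9% in control and 14.0% in Pcx L-/- liver. The log2 fold change of -0.75 (SE 0.39, 95% interval -1.61 to 0.11) was not called (adjusted p = 0.183, edgeR). Without control replicate 4 it shrank to -0.12 (adjusted p = 0.719), so this 1 mouse set its size.

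Gcgr encodes the glucagon receptor, the G protein-coupled receptor through which glucagon raises cyclic AMP in hepatocytes (ENSMUSG00000025127, chromosome 11, 120530699 to 120538986, plus strand). Its normalized counts were 5595, 5102, 5675 and 4110 in control replicates 1 to 4. They were 4970, 3360, 3481 and 3767 in Pcx L-/- replicates 1 to 4. Replicates 2 to 4 of Pcx L-/- liver lay below every control, and replicate 1 lay within the control range. The log2 fold change was -0.40 (SE 0.16, 95% interval -0.74 to -0.05), and Gcgr was not called (adjusted p = 0.086, edgeR). It was called without Pcx L-/- replicate 1 (-0.54, adjusted p = 0.0095) and without control replicate 4 (-0.49, adjusted p = 0.035). DESeq2 called it as well, with and without apeglm, so 4 of 17 alternative analyses called it. When 1 mouse was left out, adjusted p values for Gcgr reached 0.218, and 2 of these fits called it. With library size as the only scaling it was at -0.13, or -0.41 relative to the median of all genes.

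Sgk1 encodes a serum- and glucocorticoid-inducible kinase that phosphoinositide 3-kinase signaling activates and that is known for its rapid transcriptional induction (ENSMUSG00000019970, chromosome 10, 21882184 to 21999903, plus strand). Its normalized counts were 628, 526, 716 and 708 in control replicates 1 to 4. They rose to 1031, 4918, 2247 and 3188 in Pcx L-/- replicates 1 to 4. Every Pcx L-/- mouse lay above every control, and replicate 1 was the lowest of them. Against the control mean these 4 mice were at 1.60, 7.63, 3.49 and 4.95-fold. The means were 644 ± 88.5 and 2846 ± 1639 (SD, n = 4), with a log2 fold change of 2.14 (SE 0.37, 95% interval 1.34 to 2.95, adjusted p = 0.0025, edgeR). Sgk1 was called in 17 of 17 alternative analyses, with log2 fold changes from 1.74 to 2.47 and adjusted p values up to 0.010. The study itself singled out Sgk1 from these mice, so its call is not independent evidence. The spread between mice also differed, with a coefficient of variation of 13.7% in control and 57.6% in Pcx L-/- liver.

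**Figure D2:**
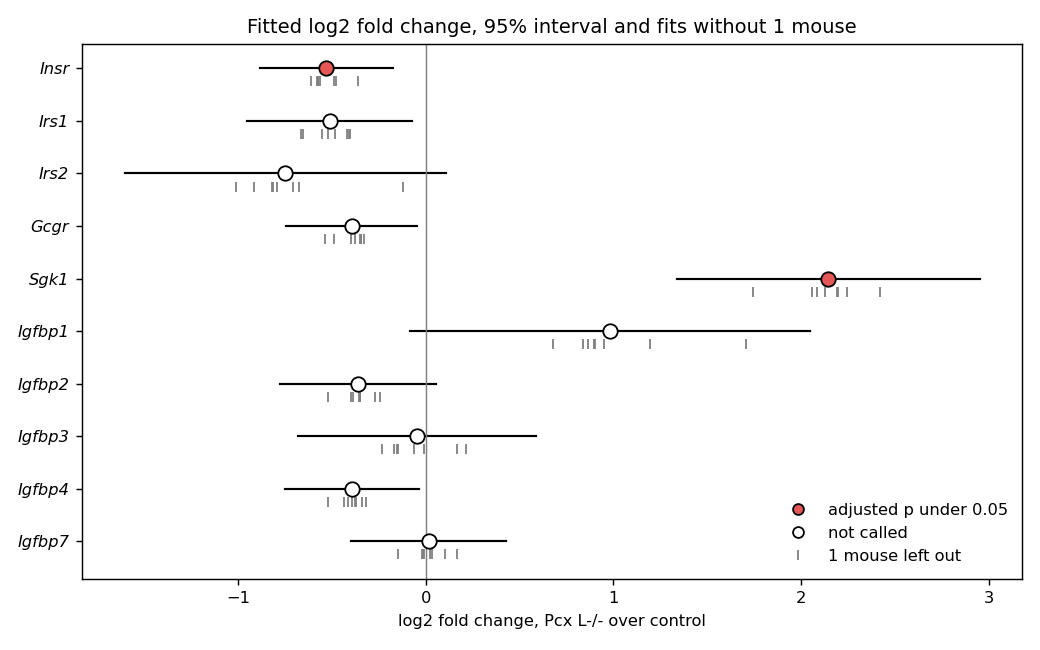
Log2 fold change of each gene in Pcx L-/- over control liver (circles) with its 95% interval (lines), filled where the gene was called. Grey ticks are the 8 fits that each left out 1 mouse. Sgk1 stayed between 1.74 and 2.42, Irs2 moved to -0.12 and Igfbp1 to 1.71 in the fit without control replicate 4.

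Igfbp1, the acutely regulated binding protein, is listed as ENSMUSG00000020429 on chromosome 11, 7197782 to 7202546, plus strand. Its normalized counts in control replicates 1 to 4 were 3225, 1178, 2701 and 8613. In Pcx L-/- replicates 1 to 4 they were 4108, 9032, 9583 and 8273. Of the 4 controls 3 lay below every Pcx L-/- mouse, and control replicate 4 lay among the Pcx L-/- values. The means were 3929 ± 3241 and 7749 ± 2486 (SD, n = 4). The log2 fold change of 0.98 (SE 0.49, 95% interval -0.08 to 2.05) was not called (adjusted p = 0.160, edgeR). Without control replicate 4 it was 1.71 (adjusted p = 0.0099), and with Pcx L-/- replicate 1 left out as well it was 1.93 (adjusted p = 3.4e-04, edgeR). Igfbp1 was also called with library size as the only scaling (1.35, adjusted p = 0.036, edgeR) and by limma on FPKM. With library size only, the median of all genes was 0.28, and relative to that median Igfbp1 was at 1.07. In total 4 of 17 alternative analyses called it. When 1 mouse was left out, only the fit without control replicate 4 called it, and adjusted p values reached 0.310. DESeq2 did not call it (0.96, or 0.30 with apeglm, adjusted p = 0.232).

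Leaving out control replicate 4 and Pcx L-/- replicate 1 together was tried after the data were seen. Then 2 of the 10 genes were called higher (Sgk1 and Igfbp1) and 3 lower (Insr, Gcgr and Igfbp4), while 39.5% of the 13335 genes tested were called, 19.9% higher and 19.6% lower. Gcgr was at -0.62 (adjusted p = 3.6e-04), Insr at -0.40 (adjusted p = 0.013) and Igfbp4 at -0.45 (adjusted p = 0.0038) in this fit.

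Igfbp2 carries Igf2 and Igf1 in plasma and was, with Igfbp4, the most abundant binding-protein transcript of these livers (ENSMUSG00000039323, chromosome 1, 72824503 to 72852474, plus strand). Its normalized counts were 14770, 10387, 18850 and 19670 in control replicates 1 to 4. They were 12035, 12115, 13071 and 12341 in Pcx L-/- replicates 1 to 4. The Pcx L-/- mice lay close together, within the much wider control range. The coefficient of variation was 3.81% in Pcx L-/- and 26.8% in control liver, a description for which no test was run. A log2 fold change of -0.36 (SE 0.19, 95% interval -0.78 to 0.05) was not called (adjusted p = 0.184, edgeR). Igfbp2 was called only without control replicate 2 (-0.52, adjusted p = 0.029, edgeR). It was at -0.24 without control replicate 4, -0.35 without Pcx L-/- replicate 1 and -0.22 without both.

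Igfbp4 encodes a binding protein that restrains Igf action until the protease Pappa cleaves it (ENSMUSG00000017493, chromosome 11, 99041244 to 99054392, plus strand). Its normalized counts were 45760, 41359, 43589 and 50566 in control replicates 1 to 4. They were 43055, 28781, 32877 and 33229 in Pcx L-/- replicates 1 to 4. As for Gcgr, replicates 2 to 4 of Pcx L-/- liver lay below every control and replicate 1 lay within the control range. Igfbp4 had a log2 fold change of -0.39 (SE 0.16, 95% interval -0.75 to -0.04) and was not called (adjusted p = 0.095, edgeR). Of 17 alternative analyses 3 called it. These were the fit without Pcx L-/- replicate 1 (-0.52, adjusted p = 0.0060) and DESeq2 with and without apeglm (adjusted p = 0.025). Without control replicate 4 Igfbp4 was at -0.34 and was not called (adjusted p = 0.152, edgeR). Its adjusted p values reached 0.246 when 1 mouse was left out. The hepatocyte markers given above were lower in the same mice in which Insr was called lower and Gcgr and Igfbp4, which were not called, had negative values, and their part in the values of these 3 genes was not tested.

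Igfbp3 carries most circulating Igf1, in a complex with the acid-labile subunit, and in liver it is made largely by cells other than hepatocytes (ENSMUSG00000020427, chromosome 11, 7206086 to 7213923, minus strand). Its normalized counts were 309.5, 583, 292 and 378 in control replicates 1 to 4, against 193, 451, 348 and 517 in Pcx L-/- replicates 1 to 4. The lowest of the 8 mice was Pcx L-/- replicate 1 and the highest control replicate 2, and the groups overlapped. Its fitted log2 fold change was -0.05 (95% interval -0.68 to 0.59, adjusted p = 0.921, edgeR). Its sign turned in several alternatives, without Pcx L-/- replicate 1 among them (0.17).

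Igfbp7, a low-affinity relative made in vessel walls and stellate cells, binds Igf weakly (ENSMUSG00000036256, chromosome 5, 77349240 to 77408041, minus strand). Its normalized counts were 1235, 1534, 1199 and 747 in control replicates 1 to 4, against 968, 1271, 1278 and 1256 in Pcx L-/- replicates 1 to 4. Control replicate 4 was the lowest of the 8 mice, and Pcx L-/- replicate 1 stood below 3 closely spaced mice of its genotype. For the genotypes it came to a log2 fold change of 0.02 (95% interval -0.40 to 0.43, adjusted p = 0.963, edgeR). The 12 stellate or fibroblast markers, none of which was called, had summed normalized counts of 7002 to 11147 in control and 4977 to 9588 in Pcx L-/- liver. Control replicate 4 and Pcx L-/- replicate 1 were the lowest of their genotypes in that sum, as they were for Igfbp7. Igfbp3 was lowest in Pcx L-/- replicate 1, but control replicate 4 was not the lowest control for it. The part of that sum in the Igfbp3 and Igfbp7 values was not tested. Of the 12 endothelial markers 1 was called lower, against 13.5% of all genes tested, with sums of 9191 to 12825 and 7900 to 9490. Control replicate 4 had the highest of these sums and Pcx L-/- replicate 1 the lowest. Pcx L-/- replicate 1 also held the largest summed count of red blood cell genes, 69347 against 4750 to 16721 in the other 7 mice, and its part was likewise not tested.

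Levels were set against each other in FPKM, reads scaled to gene length and to the total of the library, which carry no composition factor. On log2(FPKM + 0.1) all genes had a median change of 0.27, so levels are compared between genes within a genotype here. In control liver the order by mean FPKM was Igfbp2 (645), Igfbp4 (629.5), Igfbp1 (133), Gcgr (109.8), Igfbp7 (52.4), Insr (22.0), Sgk1 (11.1), Igfbp3 (8.65), Irs2 (6.79) and Irs1 (2.13). Ranges of neighbours overlapped for Igfbp2 and Igfbp4, Igfbp1 and Gcgr, Sgk1 and Igfbp3, and Igfbp3 and Irs2, and were apart for the other neighbours. Irs2 was above Irs1 in 4 of 4 mice of each genotype.

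In Pcx L-/- liver Sgk1 moved from place 7 to place 6, at 61.5 ± 37.6 FPKM (SD, n = 4), next to Igfbp7 at 64.6 ± 12.7 FPKM. It was above Insr (18.7 FPKM) in 4 of 4 mice, whereas in control liver it had been below Insr in 4 of 4. In Pcx L-/- replicate 1 the margin was small, at 19.0 FPKM for Sgk1 against 18.0 for Insr. Igfbp1 stood at 337 ± 125 FPKM, above Gcgr (100.2 FPKM) in 4 of 4 Pcx L-/- mice and in 1 of 4 controls. The order among the other genes was the same. In Pcx L-/- liver, ranges of neighbours overlapped for Igfbp2 and Igfbp4, Igfbp7 and Sgk1, Sgk1 and Insr, and Igfbp3 and Irs2.

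The make-up of the binding-protein transcripts was compared as the share of each in the summed FPKM of Igfbp1 to Igfbp7. Since FPKM carry no composition factor, the sum is not compared between genotypes. It was 1472 ± 224 FPKM in control and 1614 ± 171 FPKM in Pcx L-/- liver (SD, n = 4). Igfbp1 made up 7.96%, 3.65%, 6.17% and 16.3% of it in control replicates 1 to 4, and 11.2%, 24.7%, 24.0% and 21.9% in Pcx L-/- replicates 1 to 4. Replicates 2 to 4 of Pcx L-/- liver lay above every control, and replicate 1 lay below control replicate 4. The mean share was 8.51 ± 5.47% in control and 20.4 ± 6.29% in Pcx L-/- liver (SD, n = 4). Igfbp2 made up 43.4 ± 5.19% and 38.3 ± 0.283%, and Igfbp4 43.4 ± 5.90% and 36.4 ± 6.97%. Igfbp7 had 3.76 ± 1.73% and 3.97 ± 0.461%, and Igfbp3, Igfbp5 and Igfbp6 each made up 1.14% or less in every mouse. These shares do not depend on the library scaling, and no test was run on them.

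**Figure D3:**
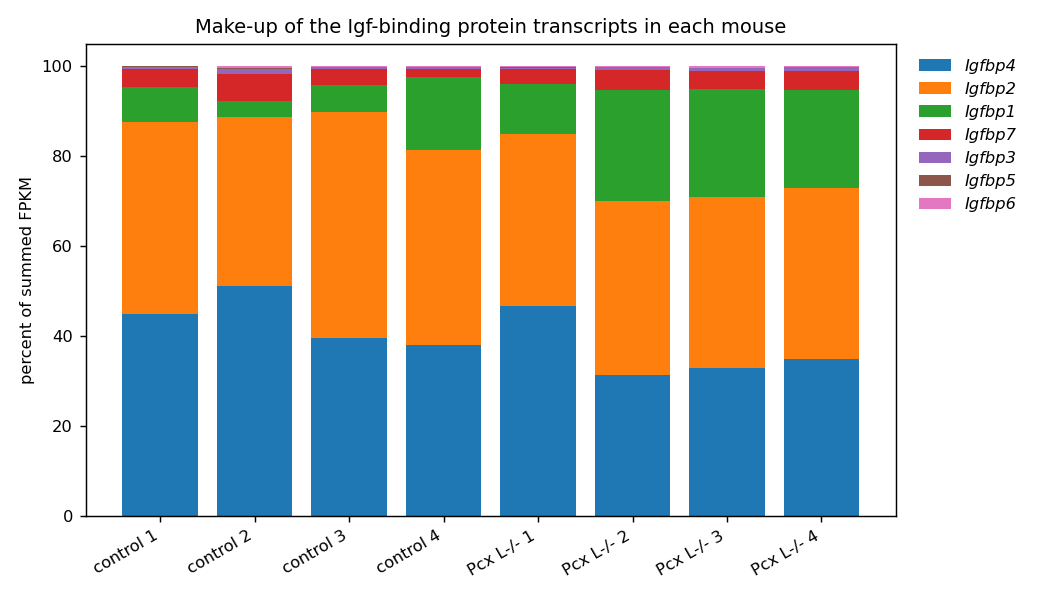
Percent of the summed FPKM of Igfbp1 to Igfbp7 that each transcript made up, with 1 bar per mouse. The Igfbp1 band was 3.65% to 16.3% in control and 11.2% to 24.7% in Pcx L-/- liver.

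The genes also varied among mice of 1 genotype, and some did so together. Log2 deviations of each mouse from its genotype mean were compared over the 8 mice, which share tissue, fast and library preparation, and the correlations are descriptions. Irs2 and Igfbp1 had r = 0.909 (Spearman's rho = 0.881), Irs1 and Igfbp1 r = 0.794 (rho = 0.714), and Irs1 and Irs2 r = 0.603 (rho = 0.5). Pairs that include a gene without a promoter match or without a window were read in the same way. Their r was 0.785 for Irs1 and Igfbp2, 0.781 for Igfbp1 and Igfbp2, 0.730 for Irs2 and Igfbp2, and 0.875 for Insr and Irs2. Without control replicates 2 and 4, r was 0.003 for Igfbp1 and Igfbp2 and -0.565 for Irs2 and Igfbp2. For Insr and Irs2 it was 0.561 without control replicate 4 and Pcx L-/- replicate 3. For Irs1 and Igfbp2 it was 0.852 without control replicate 2 and Pcx L-/- replicate 2. Control replicate 4 (Irs2 +1.33, Igfbp1 +1.49) and control replicate 2 (Igfbp1 -1.38) were the extremes for Irs2 and Igfbp1. Without these 2 mice r for Irs2 and Igfbp1 was 0.441, so much of that relation rests on them. For Irs1 and Igfbp1, r was 0.699 without control replicate 2 and Pcx L-/- replicate 2, the mice farthest out for Irs1. For Irs1 and Irs2 it was 0.383 without the same mice.

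Control replicate 4 was the highest control for 6 of the 10 genes (Insr, Irs1, Irs2, Igfbp1, Igfbp2 and Igfbp4) and the lowest for Gcgr and Igfbp7. Control replicate 2 was the lowest for 7 of them. Pcx L-/- replicate 1 was the lowest of its genotype for 6 (Irs1, Sgk1, Igfbp1, Igfbp2, Igfbp3 and Igfbp7) and the highest for Gcgr and Igfbp4. Insr and Igfbp7 moved in opposite ways, with r = -0.889 (rho = -0.524), and r = -0.945 without control replicate 4 and Pcx L-/- replicate 3. Irs1 and Sgk1 had r = 0.752 (rho = 0.857), and 0.810 without the 2 mice farthest out for Irs1.

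**Figure D4:**
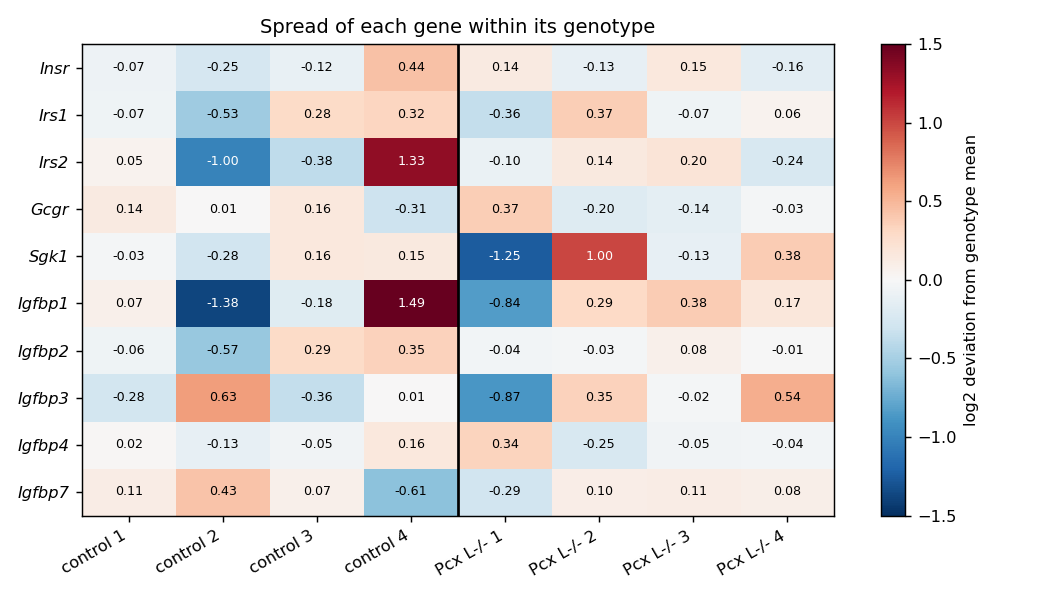
Log2 deviation of each mouse from the mean of its genotype for the 10 genes (colour and number), with controls left and Pcx L-/- mice right of the line. Control replicates 2 and 4 stood at opposite ends for Irs2 and Igfbp1, and Pcx L-/- replicate 1 stood lowest for Sgk1, at -1.25.

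The genes whose log2 counts followed those of Sgk1 most closely over the 8 mice were Trmt61a, a subunit of a tRNA methyltransferase (r = 0.992), Eaf1, an elongation-factor partner (r = 0.991), and Rusc1 (r = 0.991). All 3 were called higher in Pcx L-/- liver, Trmt61a by 2.02, Rusc1 by 2.20 and Eaf1 by 0.38 on the log2 scale. For Igfbp1 they were Ddost, a subunit of the oligosaccharyltransferase (r = 0.988), Ptges3-ps (r = 0.987) and the splicing factor Sf3b3 (r = 0.983), none of which was called. For Insr they were Mtus1 (r = 0.991), R3hdm4 (r = 0.986) and the phosphatase regulator Ppp6r2 (r = 0.984), of which only Ppp6r2 was called, lower by -0.56. Such correlations include the difference between genotypes.

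The rest of the insulin receptor pathway was read from a list of 53 genes, 51 of them tested and Insr, Irs1 and Irs2 among them. Of the 51, 4 were called higher and 10 lower, against 14.1% and 13.5% of all genes tested. The median log2 fold change was -0.18 (all genes tested -0.01). Trib3, a pseudokinase that binds Akt and is induced by the integrated stress response, went from 272 ± 4.55 to 4895 ± 1459 normalized counts (SD, n = 4; log2 fold change 4.17, adjusted p = 4.0e-06, edgeR). The study also singled out Trib3 from these mice. Grb10, an adaptor that restrains the receptor, rose from 61.5 ± 3.08 to 129 ± 51.6 normalized counts (1.08, adjusted p = 0.014), and Rheb, the GTPase that activates mTOR, rose by 0.52. The fourth was Eif4ebp1 (0.49), a repressor of cap-dependent translation.

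The 3 lowest genes of that list were Socs1 (-0.80), Irs2 (-0.75) and Enpp1 (-0.69), of which only Enpp1, an inhibitor of the receptor, was called (adjusted p = 0.0071, edgeR). Enpp1 fell from 643 ± 122 to 397 ± 52.1 normalized counts, with no overlap. The genes called lower included the phosphoinositide 3-kinase subunits Pik3ca (-0.44), Pik3cb (-0.50) and Pik3r1 (-0.41), the adaptors Gab1 (-0.53) and Sos1 (-0.45), the receptor phosphatase Ptprf (-0.44), Tsc1 (-0.45) and Foxo4 (-0.62). Akt1 (0.13), Akt2 (-0.18) and Foxo1 (-0.40) were not called. With library size as the only scaling the list had 9 genes called higher and 2 lower. In that fit 4785 of the 13168 genes tested were called, 81.8% of them higher, so the balance of all genes moved with the scaling too. Without Pcx L-/- replicate 2 the list had 3 higher and 3 lower, while 2295 of 13270 genes tested were called.

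In the glucagon and cyclic AMP list 48 of 54 genes were tested, Gcgr among them, with a median of -0.21. Of the 48, 12 were called lower and none higher, against 13.5% and 14.1% of all genes tested. The lowest were Pde4a (-1.13), a cyclic AMP phosphodiesterase, Itpr1 (-1.08), a calcium channel of the endoplasmic reticulum, and Sik1 (-1.02), a kinase that is itself induced by cyclic AMP and holds back the Crtc coactivators. Itpr1 fell from 1929 ± 597 to 913 ± 209.5 normalized counts (SD, n = 4; adjusted p = 0.0050, edgeR), without overlap. Also called lower were Itpr2 (-0.86), the cyclic AMP sensor Rapgef4 (-0.71), the phosphodiesterases Pde3b (-0.67) and Pde8a (-0.55), the adenylyl cyclases Adcy6 (-0.56) and Adcy4 (-0.50), and Ep300, Crtc2 and Akap1. The highest values, of Adcy9 (0.26), Crtc1 (0.14) and Grk2 (0.13), were not called. The catalytic subunits of protein kinase A, Prkaca (-0.11) and Prkacb (-0.18), and Creb1 (-0.27) were not called either. With library size as the only scaling 6 were called lower and 2 higher, where 81.8% of all genes called were higher. When 1 mouse was left out, 7 to 15 were called lower. The fewest were called without control replicate 1 or without Pcx L-/- replicate 2 or 4.

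**Figure D5:**
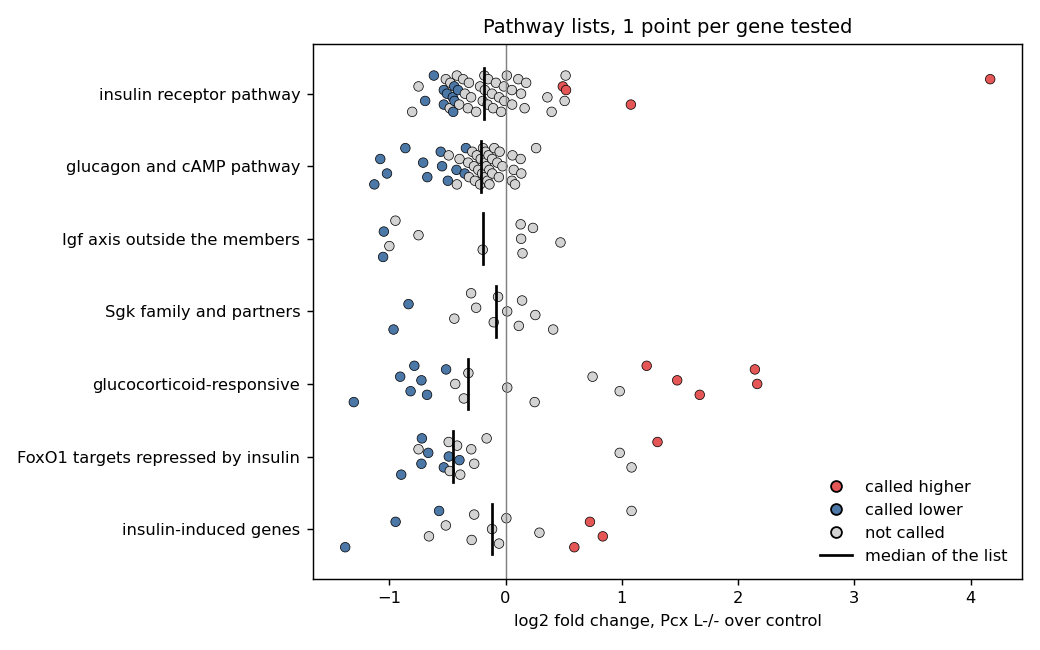
Log2 fold change of each tested gene of 7 lists in Pcx L-/- over control liver, 1 point per gene, coloured by its call, with the list median as a black line. Trib3 stands at 4.17, and in the glucagon and cyclic AMP list every called gene lies below 0.

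Outside the binding proteins described above, 11 of 16 genes of the Igf axis were tested. Of the 11, 2 were called lower and none higher (median -0.20), against 13.5% and 14.1% of all genes tested. Igf1, the main ligand, fell from 10444 ± 1520 to 5036 ± 2330 normalized counts (SD, n = 4; log2 fold change -1.05, adjusted p = 0.013, edgeR). Igfals, the acid-labile subunit that joins Igf1 and Igfbp3 in plasma, fell from 1694 ± 310 to 822 ± 506 (-1.05, adjusted p = 0.031). Without control replicate 1 or 3, or without any one of Pcx L-/- replicates 2 to 4, 1 gene of this list was called lower. Values of both genes overlapped between genotypes, and Igfals was called in 3 of the 8 analyses that left out 1 mouse. Pappa2, a protease of Igf-binding proteins, was low as well without being called (adjusted p = 0.26). The highest values, of Igfbp6 (0.47), Igf2bp2 (0.24) and Igf2r (0.15), were not called.

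Among 12 relatives and partners of Sgk1, 2 were called lower and none higher (median -0.08), against 13.5% and 14.1% of all genes tested. The count called lower was 1 without Pcx L-/- replicate 4 and 3 without control replicate 4. With library size as the only scaling 2 were called higher and 2 lower, where 81.8% of all genes called were higher. With TMM factors and all mice, the 2 called lower were Scnn1a (-0.96), a subunit of the epithelial sodium channel, and Ndrg2 (-0.83), a protein phosphorylated by Sgk1. Sgk2 (0.14) and Sgk3 (-0.06), the other kinases of the family, were not called, nor were Nedd4l (0.11), the ubiquitin ligase that Sgk1 phosphorylates, Pdpk1 (-0.25), its upstream kinase, Ndrg1 (0.26), Mapk7 (0.41) and Slc9a3r2 (-0.44).

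Sgk1 and Igfbp1 are both on the list of genes known to respond to glucocorticoids, which rise in fasting. Of 19 genes tested on it, 5 were called higher and 7 lower (median -0.32), against 14.1% and 13.5% of all genes tested. The highest were Cdkn1a (2.16), which also responds to p53, Sgk1 and Lcn2 (1.67), an acute-phase protein, followed by the metallothioneins Mt2 (1.48) and Mt1 (1.21). The lowest were Tdo2 (-1.30), Fkbp5 (-0.91) and Hsd11b1 (-0.82), the enzyme that regenerates active glucocorticoid. Tsc22d3 fell from 2652 ± 699 to 1541 ± 98.5 normalized counts (-0.78, adjusted p = 0.0084, edgeR), and the receptor Nr3c1 was at -0.51 (adjusted p = 0.029). When 1 mouse was left out, 5 to 6 genes of this list were called higher and 3 to 7 lower, with 3 lower without control replicate 3 or without Pcx L-/- replicate 3 or 4.

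Insr, Irs2 and Igfbp1 are on a list of 18 FoxO1 targets that insulin represses, all of them tested. Of these 7 were called lower and 1 higher, with a median of -0.45, against 13.5% and 14.1% of all genes tested. The lowest were G6pc (-0.90), the last enzyme of gluconeogenesis, Irs2 and Pck1 (-0.72), another gluconeogenic enzyme. The highest were Pdk4 (1.31), Angptl8 (1.08) and Igfbp1 (0.98), of which Pdk4 alone was called (adjusted p = 0.0496, edgeR). Pdk4 overlapped between genotypes. It was called in 4 of 17 alternative analyses and in 1 of the 8 that left out 1 mouse. DESeq2 called 8 genes of this list lower and 0 higher. Angptl8 was placed on this list and on that of genes that insulin induces, and since insulin is known to raise it, its place here tells nothing of repression. Without Pcx L-/- replicate 3 no gene of this list was called. Without control replicate 4, 1 was called higher and 5 lower, and without Pcx L-/- replicate 1, 1 higher and 8 lower. With library size as the only scaling 3 were called higher and 1 lower, where 81.8% of all genes called were higher. Of 15 tested genes that insulin induces, 3 were called higher and 3 lower (median -0.12), against 14.1% and 13.5% of all genes tested. With library size as the only scaling 5 were called higher and 2 lower, again beside 81.8% higher among all genes called. Srebf1 (-1.38), a regulator of lipogenesis, and Fasn (-0.95) fell, with Acacb (-0.66) between Fasn and Scd1 (-0.57, called) and not called itself. Me1 (0.73) and the pyruvate kinase gene Pklr (0.84) rose, and Angptl8 (1.08) was the highest without being called.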

How the data were processed

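Total liver RNA was sequenced from 4 Pcx L-/- and 4 control mice, grouped by the sample labels. The authors aligned reads to mm10 (GRCm38) and deposited raw counts per Ensembl gene; the submitters' processing notes name STAR 2.5, HTSeq 0.6.1 and DESeq2, while strand use and annotation release were not given in the sources used here. FPKM were also deposited by the authors, and 100% of 142384 values above 0 equalled the count divided by gene length and library total within a relative tolerance of 1e-06. Symbols came from GENCODE M21 and matched 34490 of 35275 identifiers.

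Counts were fitted with edgeR 4.0.16 (R 4.3.3), with TMM factors, filterByExpr (minimum count 10, minimum total 15), genotype as the only term, the quasi-likelihood F test and Benjamini-Hochberg correction. The steps were tested on simulated data. Approximate standard errors were derived from the F statistic. Each mouse is 1 replicate. Alternatives were DESeq2 1.42.0 with and without apeglm 1.24.0, limma 3.58.1 on log2(FPKM + 1) and log2(FPKM + 0.1), other scalings, no filter, a replicate block, the mouse-number series and each mouse left out.

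Members and gene lists were chosen with earlier results of these data known. Named genes are the members, the 3 highest and 3 lowest of each list, list genes that act with a member, the 3 genes most correlated with Sgk1, Igfbp1 and Insr, and Pcx. Other called list genes were named after their values were seen. Promoters are from RefSeq (GRCm38.p6).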

Additional observations from a re-analysis of the deposited data

Results flagged for a closer look

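In 20 groups checked (10 genes in 2 genotypes), 1 sample stood far from the rest by Dixon's test at the 95% level. Igfbp7 in Pcx L-/- replicate 1 was at 968.1 normalized counts, against 1256, 1271 and 1278 in the other mice of that genotype, a gap of 0.931 of the range. Chance flags about 1 in 20 groups.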

How the results depend on the processing

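The count of the 10 genes called higher was 2 in place of 1 with library size as the only scaling, by limma on log2(FPKM + 1) and log2(FPKM + 0.1), and without control replicate 4 and Pcx L-/- replicate 1 together, and it ranged from 1 to 2 with 1 mouse left out. The count called lower was 3 by DESeq2 with and without apeglm and without both mice, 2 with the mouse-number series, 0 with library size only and by both limma fits, and 0 to 3 with 1 mouse left out. Library size as the only scaling put the median of all genes at 0.28, and 81.8% of its calls were higher, against 51.1% with TMM. Genes called numbered 3632, and 2109 (without Pcx L-/- replicate 4) to 5266 (without both mice) over the alternatives. Replicate numbers did not pair the mice (correlations of deviations -0.13 to 0.10). With the replicate block 0 of the genes were called lower and 1 higher, and Insr was at -0.51 (adjusted p = 0.058, edgeR). Irs2 and Igfbp3 were called in no alternative, nor was Igfbp7. Igfbp3 turned to 0.26 with library size only, 0.20 and 0.19 by limma with pseudocounts of 0.1 and 1, 0.17 without both mice, and -0.23 to 0.21 with 1 mouse left out. Igfbp7 turned to -0.05 without both mice and ranged from -0.15 to 0.17 with 1 mouse left out. The causes were not tested. With 4 mice a genotype and a biological coefficient of variation of 0.181, the intervals of Igfbp1 and Irs2 span more than 1.5 log2 units.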
